A study of Drosophila melanogaster with 2 samples.

Results

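The mitochondrial ribosomal protein genes of Drosophila melanogaster are the nuclear genes for the proteins of the ribosome inside mitochondria. They were taken as every protein-coding gene whose symbol is mRpL or mRpS followed by a number, which gave 73 of the 13945 protein-coding genes on 6 chromosome arms. Of these, 47 encode proteins of the large subunit and 26 encode proteins of the small subunit. Binding of ADD1 next to them was read from chromatin immunoprecipitation followed by sequencing (ChIP-seq). The chromatin came from whole embryos aged 0 to 24 h, males and females pooled. They were of a transgenic line that stably expresses ADD1 with GFP fused to its C-terminal end. ADD1 is a chromatin protein known as a partner of HP1a, the protein that packs heterochromatin. An anti-GFP antibody pulled down the fusion protein from chromatin broken by sonication, with a size range of 200 to 800 bp. There was 1 group with 2 biological replicates, all from 1 line, so the values speak for this line and for a mixture of every embryonic cell type. A control entered the peak calling and was not analysed here. The depth is unknown, because no numbers of reads were given in the sources used here.

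Mitochondria keep a small genome of their own, and a dedicated ribosome translates its messenger RNAs into core subunits of the respiratory chain and of ATP synthase. The RNA of this mitoribosome is transcribed inside the organelle, whereas its proteins are encoded in the nucleus, made in the cytoplasm and imported. Some of them descend from proteins of the bacterial ribosome, and others are found in mitochondria and have no bacterial counterpart. In the compact fly genome many genes lie close to another gene that is read in the opposite direction, so that a single stretch of DNA can serve as promoter region for both.

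ADD1-GFP summits lay near the starts of 31 of the 73 mitoribosomal genes, and at 17 of those 31 genes the summit was nearer to the start of a neighbouring gene. A summit is the position of highest signal within a peak, and a gene was counted when a summit lay within 500 bp of any of its annotated starts. The peaks were the 7944 on the list that the authors cut by irreproducible discovery rate (the IDR list). They were also the 7944 strongest peaks called on both replicates together, so a listed peak was not always found in each replicate. The 31 members are 42.5% of the 73, with an exact 95% interval of 31.0% to 54.6% that covers counting error only. Over all protein-coding genes the share was 26.1% (3638 of 13945). At 12 of the 31 members the strongest such summit was nearest to the member's own start, and at 2 the member shares that nearest start with another gene. Summits nearest to an own or shared start were thus found at 14 of 73 members, or 19.2% (10.9% to 30.1%), and at 21.7% of all protein-coding genes (3025 of 13945). The share of the members was above that of all protein-coding genes when a summit counted for every start within reach. When it counted for the nearest start alone, the members' interval held the share of all protein-coding genes.

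**Figure D1:**
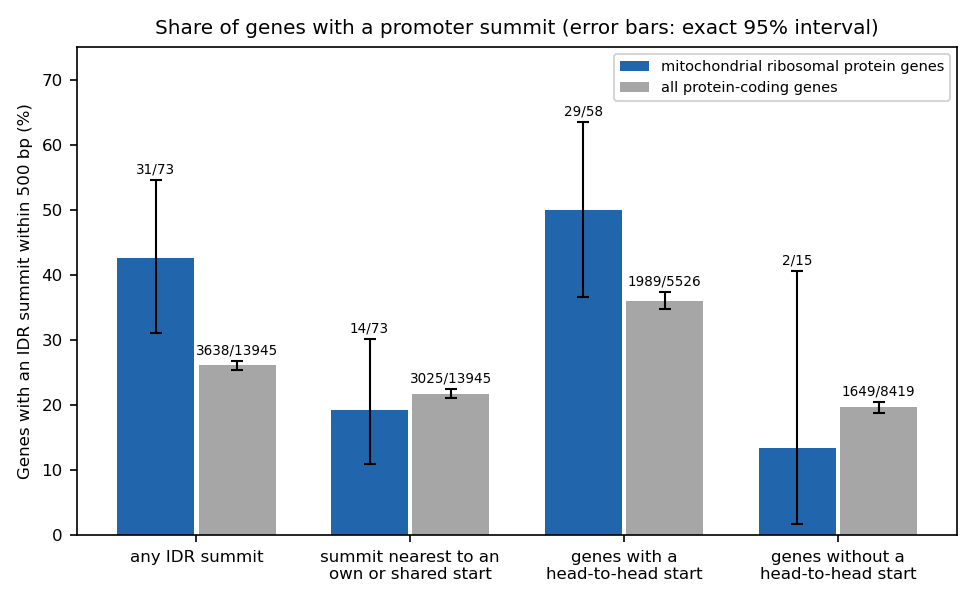
Share of genes with an IDR summit within 500 bp of a start, in percent, for the mitochondrial ribosomal protein genes (blue) and all protein-coding genes (grey), with exact 95% intervals as error bars and the counts above them. The members stand at 42.5% and all protein-coding genes at 26.1% for any summit, against 19.2% and 21.7% for summits nearest to an own or shared start; the right-hand groups split the genes by whether a start read in the opposite direction lies within 1000 bp upstream.

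The sequences at some of the strongest member peaks are given here, because they show the sequence in which the summits lay. Coordinates are those of genome Release 6 (dm6), and each sequence is read 5′ to 3′ on the strand of the mitoribosomal gene. Those of mRpS23 (chr2L:13835410-13835510, minus strand), mRpL4 (chr2L:16329144-16329244, minus strand) and mRpL33 (chrX:4322462-4322562, minus strand) reach 50 bases to either side of the summit. Those of mRpS10 (chr3R:15229408-15229665, plus strand) and mRpL47 (chr3R:9515908-9516007, minus strand) are the whole space between the start of the gene read in the opposite direction, at their first base, and the start of the mitoribosomal gene, at their last base. Capitals mark the words TATCGATA, GGTCACACT and CAGCTG, and none of these 5 sequences holds any of them, so all letters are in lower case.
mRpS23, bases around the summit: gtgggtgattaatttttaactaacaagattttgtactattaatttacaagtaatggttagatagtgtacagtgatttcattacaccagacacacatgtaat
mRpS10, space between Art3 and mRpS10: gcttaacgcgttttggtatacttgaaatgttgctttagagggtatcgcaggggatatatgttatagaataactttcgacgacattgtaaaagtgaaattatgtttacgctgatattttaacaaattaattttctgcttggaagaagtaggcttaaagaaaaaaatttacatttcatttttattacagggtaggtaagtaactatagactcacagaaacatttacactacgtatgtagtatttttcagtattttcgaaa
mRpL4, bases around the summit: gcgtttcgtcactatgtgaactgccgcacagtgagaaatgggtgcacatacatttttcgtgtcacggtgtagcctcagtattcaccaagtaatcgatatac
mRpL33, bases around the summit: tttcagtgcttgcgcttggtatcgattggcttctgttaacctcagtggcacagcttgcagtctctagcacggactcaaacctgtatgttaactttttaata
mRpL47, space between CG8176 and mRpL47: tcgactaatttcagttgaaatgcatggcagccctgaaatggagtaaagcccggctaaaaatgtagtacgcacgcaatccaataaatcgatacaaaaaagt

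The strongest peak of the whole IDR list had its summit within 500 bp of a member's start. It lay upstream of mRpS23, which encodes a protein of the small subunit without a bacterial counterpart, and had a signal of 9003 and a width of 488 bp (chr2L:13835254-13835741, summit at 13835460). The signal is the authors' own value on a scale that is not stated, and it is used here only to rank peaks within a list, with rank 1 the strongest. In the replicates the same summit had rank 3 and rank 1, at 7 and 0 bp from the IDR summit. It lay 388 bp upstream of mRpS23 and 104 bp upstream of CenG1A, a gene for a GTPase-activating protein of the Arf family that is read in the opposite direction from a start 492 bp away. The summit was thus outside both genes and nearer to CenG1A. The next member in rank was mRpS10, whose bacterial counterpart sits in the head of the small subunit. Its summit had rank 34 with a signal of 3029, and ranks of 26 and 96 in the replicates. It lay 148 bp upstream of mRpS10 and 109 bp upstream of Art3, which encodes a protein arginine methyltransferase.

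Among the peaks nearest to a member's own start, that of mRpL23 was the strongest. The bacterial counterparts of mRpL23, mRpL4 and mRpL24 line the tunnel through which the new protein leaves the ribosome. The mRpL23 summit had rank 90 and a signal of 1915, and it was the only member summit downstream of the member's start, 51 bp into the 5′ UTR. The start of CG9004, read the other way, lies 24 bp from the nearest start of mRpL23. Its ranks in the replicates were 57 and 399. The mRpL4 summit had rank 234 and a signal of 1220, with ranks of 334 and 155 in the replicates. It lay 62 bp upstream of mRpL4, whose head-to-head neighbour CG4440 starts 793 bp away, so the peak sat at the mRpL4 end of a long space. The mRpL41 summit (rank 703, signal 705) was also at the member's end, 105 bp upstream of its start and with CG8079 starting 762 bp away. The replicates differed here, with rank 363 in replicate 1 and rank 4438 in replicate 2.

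At 2 members the nearest start belongs to the member and to another gene alike. The summit at mRpL53 (rank 322, signal 1025, 514 and 215 in the replicates) lay 82 bp upstream of a start that mRpL53 shares with CG33155. That summit is also within an intron of AGO1, the gene for the Argonaute protein of the microRNA pathway, of which a start lies 170 bp from mRpL53. The summit at mRpL13 (rank 590, signal 778, 813 and 455 in the replicates) likewise lay 82 bp upstream of a start shared with CG10602. For both, the peak lists cannot tell the member and its partner apart.

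The remaining members among the 12 strongest were nearer to a neighbour except mRpL1. The mRpL33 summit (rank 345, signal 992) had ranks of 361 and 372 in the replicates and lay 281 bp upstream of the member and 114 bp from norpA, the phospholipase C gene of phototransduction. The mRpL47 summit (rank 426, signal 914, 406 and 520 in the replicates) lay 25 bp from the shared start of CG8176 and of Kdm3, a histone demethylase gene. These were close to equal in rank between the replicates. The mRpS2 summit (rank 809, signal 661, 840 and 929 in the replicates) was 218 bp upstream of mRpS2 and 4 bp from the start of Mon1, which encodes part of an exchange factor for the GTPase Rab7. The mRpS16 summit (rank 966, signal 596, 1178 and 917 in the replicates) was 24 bp from the start of cg, which encodes the zinc finger protein Combgap. The mRpL1 summit, 56 bp upstream of a gene whose bacterial counterpart forms the mobile L1 stalk, had rank 1652 and a signal of 445. It had rank 1654 in replicate 2 and no summit within 200 bp in replicate 1, where the nearest lay 2696 bp away.

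**Figure D2:**
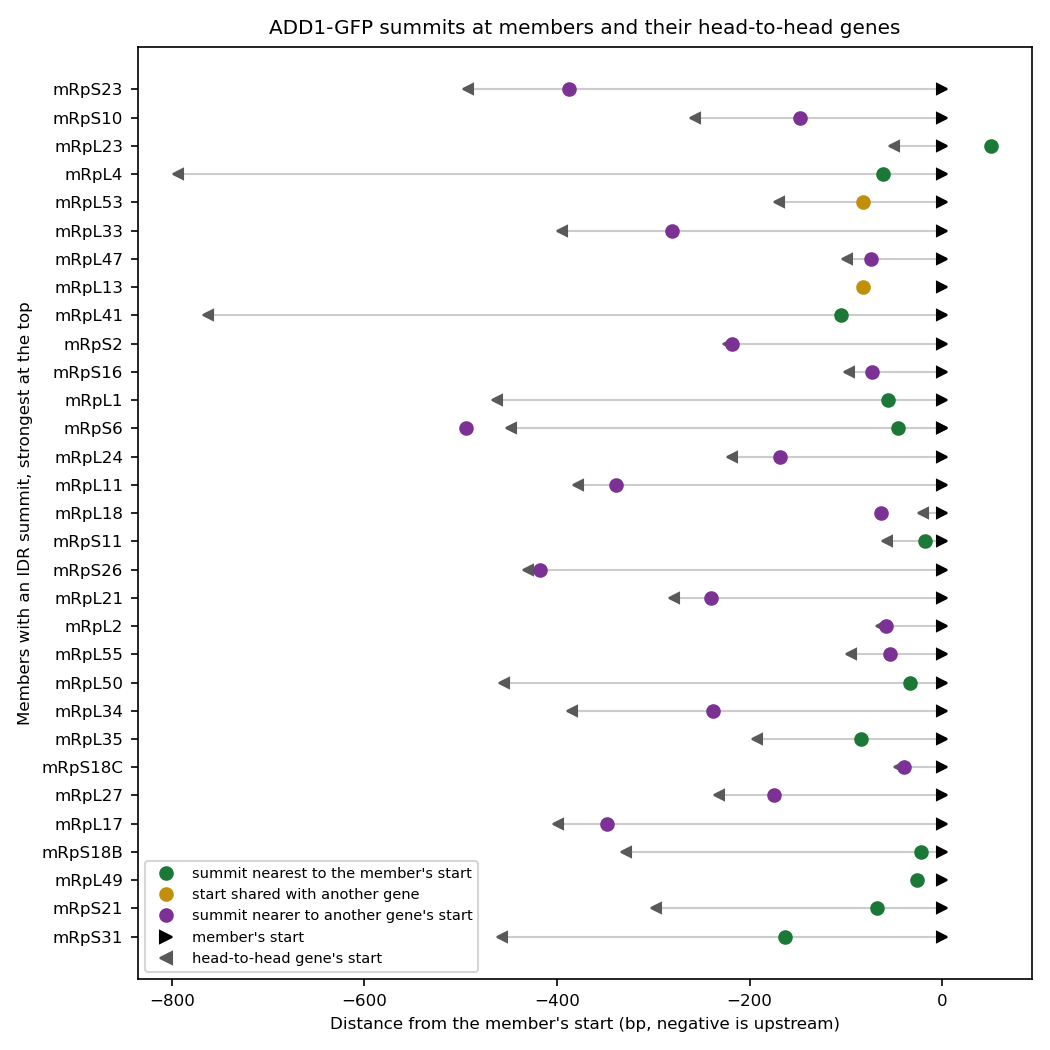
Position of each IDR summit (circles) along the bases upstream and downstream of the member's start (black triangles, at 0 bp), for the 31 members in order of their strongest signal; grey triangles mark the start of the head-to-head gene that is nearest to the summit. Green circles are nearest to the member's start (12 members), yellow circles to a start it shares (2) and purple circles to another gene's start (17, and the weaker of the 2 summits of mRpS6).

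Of the weaker peaks nearest to an own start, mRpS6 had 2 summits in the IDR list, the only member with more than 1. The stronger, 46 bp upstream of mRpS6, had rank 1965 (2103 and 2395 in the replicates). The other lay 495 bp upstream, 47 bp from the start of the head-to-head gene Cip4 and within its 5′ UTR, with rank 2767 (2739 and 2896 in the replicates). Each gene of that pair, 448 bp apart, therefore had a summit of its own. Bacterial S6 pairs with S18 on the platform of the small subunit, and of the 3 fly S18 genes mRpS18B and mRpS18C had a summit while mRpS18A had none. The mRpS18B summit had rank 5891, 22 bp upstream (6380 and 6944 in the replicates). That of mRpS18C had rank 4976 and lay 40 bp from the member and 5 bp from CG15535.

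The mRpS11 summit, 18 bp upstream of the gene and 39 bp from Ns1, the gene for nucleostemin, had rank 2210. It had rank 1411 in replicate 2 and none within 200 bp in replicate 1, where the nearest summit was 4814 bp away. Thus mRpL1 and mRpS11 rest on replicate 2 and on the joint call. The mRpL50 summit lay 33 bp upstream with rank 3578 (3281 and 4761 in the replicates). The mRpL35 summit lay 84 bp upstream with rank 4125 (4452 and 4258 in the replicates), 108 bp from Mitofilin, a gene for a protein of the mitochondrial inner membrane. The last 4 of the own-start group were near the end of the IDR list. Beside mRpS18B these were mRpL49 (rank 6119, 26 bp upstream, 6361 and 7774 in the replicates), mRpS21 (rank 6576, 68 bp upstream of the member, 6833 and 6810 in the replicates) and mRpS31 (rank 7503, 163 bp upstream, 6284 and 8346 in the replicates).

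The other members with a summit nearer to a neighbour ran in rank from mRpL24 to mRpL17. The mRpL24 summit had rank 2051, 168 bp upstream of the member and 50 bp from betaggt-I, the gene for the beta subunit of a protein prenyltransferase. That of mRpL11, whose bacterial counterpart belongs to the site where translation factors bind, had rank 2176, 339 bp upstream and 39 bp from the farther start of HtrA2, a gene for a mitochondrial protease. The mRpL18 summit (rank 2200) lay 64 bp upstream and 44 bp from Taz, the gene for the cardiolipin-remodelling enzyme tafazzin. Neighbours with a role in mitochondria also included ATPsynD, a gene for a subunit of ATP synthase, 41 bp from the summit at mRpL55 (rank 3465, 54 bp upstream). In the next 3 the summit was much closer to the neighbour than to the member. The mRpS26 summit (rank 2713) lay 418 bp upstream and 12 bp from CG13698. The mRpL21 summit (rank 3001) lay 240 bp upstream and 39 bp from rept, the gene for the ATPase Reptin. At mRpL2, whose bacterial counterpart is next to the peptidyl transferase centre, the summit (rank 3251) lay 58 bp upstream and 6 bp from FoxK, a gene for a forkhead protein. At mRpL34 the summit was less close to the neighbour: it had rank 3761 and lay 238 bp upstream and 146 bp from Dg, the gene for dystroglycan. The mRpL27 summit (rank 5118) lay 175 bp upstream and 57 bp from CG15435. The mRpL17 summit (rank 5187) lay 348 bp upstream and 51 bp from Tudor-SN, the gene for the Tudor staphylococcal nuclease. The neighbours named here thus encode proteins of varied function, some of them mitochondrial.

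As a group, the 17 summits nearer to a neighbour lay a median of 175 bp from the member (40 to 418 bp) and 41 bp from the neighbour (4 to 146 bp), with a median rank of 2200. The 12 nearest to an own start lay a median of 53.5 bp from it (18 to 163 bp), with a median rank of 2894. Over all 31 members, the summit nearest to the start lay a median of 82 bp upstream (an offset of -82 bp, quartiles -196 and -55 bp, range -418 to 51 bp), and it was upstream in 30 of them. The median offset over all protein-coding genes with a summit was -44 bp. The members' median was thus farther upstream. This comparison was not matched for the number of annotated starts or for neighbouring genes. The share of all protein-coding genes whose nearest summit is upstream is not given here. The strongest member summits had a median rank of 2200, against 2644 for all protein-coding genes with a summit. They were among the 1000 strongest peaks for 11 of the 31 members (35.5%), against 20.5% of all protein-coding genes with a summit. Their median signal was 376 over 32 distinct summits, against 289 over the 3627 IDR summits at protein-coding starts, and their median width was 232 bp, against 241 bp. Peaks nearer to a neighbour's start entered these comparisons. By nearest start, the members' median ranks were 2894 (own, 12 members), 456 (shared, 2 members) and 2200 (neighbour, 17 members). Of the 32 summits, 26 lay outside protein-coding genes, 5 in a 5′ UTR and 1 in an intron. The same places were not counted over the 3627 summits, so they are not shown to be particular to the members.

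The members differed from other genes in how their starts are arranged. A start on the opposite strand, read away from the member, lay within 1000 bp upstream of 58 of the 73 members (79.5%), against 39.6% of all protein-coding genes (5526 of 13945). Such a gene is called head-to-head here. The median distance to it was 283 bp for the members and 298 bp for all protein-coding genes that have such a neighbour. Among head-to-head genes, an IDR summit was present at 29 of 58 members (50%, 36.6% to 63.4%) and at 36% of all protein-coding genes (1989 of 5526). Among genes without such a neighbour it was present at 2 of 15 members (13.3%, 1.66% to 40.5%), namely mRpL13 and mRpL49, and at 19.6% of all protein-coding genes (1649 of 8419). With no other annotated start of any kind within 1000 bp, the counts were 1 of 13 members (mRpL49) and 19.3% of all protein-coding genes (1396 of 7219). The lower bound of 36.6% for head-to-head members was just above the 36% of all such genes, and the intervals of the other members held the shares of all protein-coding genes.

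Genes with several annotated starts have more room for a summit, and members had few starts. A single start was annotated for 67 of 73 members (91.8%), against 73.5% of all protein-coding genes. Among genes with 1 start the share with a summit was 41.8% of members (28 of 67), against 18.7% of all protein-coding genes (1916 of 10246). With 1 start and a head-to-head neighbour it was 49.1% of members (26 of 53, 35.1% to 63.2%), against 28.1% of all protein-coding genes (1052 of 3738). Members were thus above all protein-coding genes in these splits by number of starts, which were chosen after values had been seen. Without a head-to-head neighbour they were not above them, at 13.3% (2 of 15) against 19.6%.

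The spacing between the starts did not order the members. Summits were present at 9 of 18 members whose head-to-head start was at most 100 bp away, at 8 of 15 with over 100 and up to 300 bp, at 10 of 20 with over 300 and up to 500 bp and at 2 of 5 with over 500 and up to 1000 bp. Over all protein-coding genes these bins gave 37.7%, 32.8%, 38.8% and 36.6%. The median distance was 257 bp for head-to-head members with a summit and 290 bp for those without.

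Most summits lay in the space that the starts of the pair enclose. Of the 29 members with a summit and a head-to-head gene, 25 had their strongest summit between the nearest starts of the 2 genes. No such count over all protein-coding genes is given here, so 25 of 29 is not shown to be particular to the members. In 14 of these 25 it was nearer to the other gene and in 11 nearer to the member. Some lay about midway, as at mRpL53, with 82 bp to the member and 88 bp to AGO1, and at mRpL35, with 84 and 108 bp. The exceptions were mRpL23, with its summit downstream of the member's start, mRpL18, and mRpL11 and mRpL27, whose summits lay beyond the nearest start of HtrA2 and CG15435 and in their 5′ UTR. Among genes with a summit and a head-to-head neighbour, an own or shared start was nearest for 41.4% of members (12 of 29, 23.5% to 61.1%) and for 70.3% of all protein-coding genes (1398 of 1989). Other genes more often have several starts, and with 1 annotated start the shares were 42.3% of members (11 of 26, 23.4% to 63.1%) and 59.1% of all protein-coding genes (622 of 1052), which lies inside the members' interval.

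A summit was near 20 of 47 genes of the large subunit (42.6%) and 11 of 26 genes of the small subunit (42.3%), almost the same share. A bacterial counterpart was read from the number in the symbol, up to 36 for the large and up to 21 for the small subunit. This rule was not checked protein by protein, so single members may be misplaced. Members of this bacterial type had a summit in 22 of 42 cases (52.4%, 36.4% to 68.0%), against 9 of 31 of the others (29.0%, 14.2% to 48.0%). The intervals overlap, and no test was made. The 26.1% of all protein-coding genes lies inside the interval of the others and below that of the bacterial type. The same order held in each subunit, with 14 of 28 against 6 of 19 in the large and 8 of 14 against 3 of 12 in the small. Only summits nearest to an own or shared start were then counted, and 21.7% of all protein-coding genes had one. The members' counts were 9 of 42 of bacterial type (21.4%) and 5 of 31 of the others (16.1%). By this count the order differed between the subunits, with 5 of 28 (17.9%) against 4 of 19 (21.1%) in the large and 4 of 14 (28.6%) against 1 of 12 (8.33%) in the small.

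The strongest peaks of each replicate gave the same number of members. Among the 7944 strongest peaks of each replicate, 32 of 73 members (43.8%) had a summit within 500 bp, against 25.8% of all protein-coding genes in replicate 1 and 29.0% in replicate 2. Both replicates held such a summit for 27 members (37%), against 21.8% of all protein-coding genes. Of the 31 members in the IDR list, 29 were among these in replicate 1 (without mRpL1 and mRpS11) and 29 in replicate 2 (without mRpL27 and mRpS31). The members added were mRpL32, mRpS5 and mRpS7 in replicate 1 and mRpL22, mRpL28 and mRpL48 in replicate 2. Genes kept or added in this way were not counted over all protein-coding genes. Neither count is thus shown to be particular to the members. A replicate summit lay within 200 bp of the strongest IDR summit in both whole lists for 29 members, at a median of 4 bp in replicate 1 and 9 bp in replicate 2. The rank was better in replicate 1 for 20 of these 29 and better in replicate 2 for 9, with medians of 2142 and 3602 over the members matched in each. Matches and ranks of this kind were not taken over all protein-coding genes. The better ranks in replicate 1 are thus not shown to be particular to the members. The widest gaps in rank were at mRpL41, at mRpL24 (1112 and 5840) and at mRpL27 (2926 and 14489). The whole replicate lists, of 30000 peaks each, had a summit near 38 members in replicate 1 (52.1%, 40.0% to 63.9%, against 38% of all protein-coding genes) and near 41 in replicate 2 (56.2%, 44.1% to 67.8%, against 44.7%). The interval in replicate 2 thus holds the share of all protein-coding genes. No test was made between 2 replicates.

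**Figure D3:**
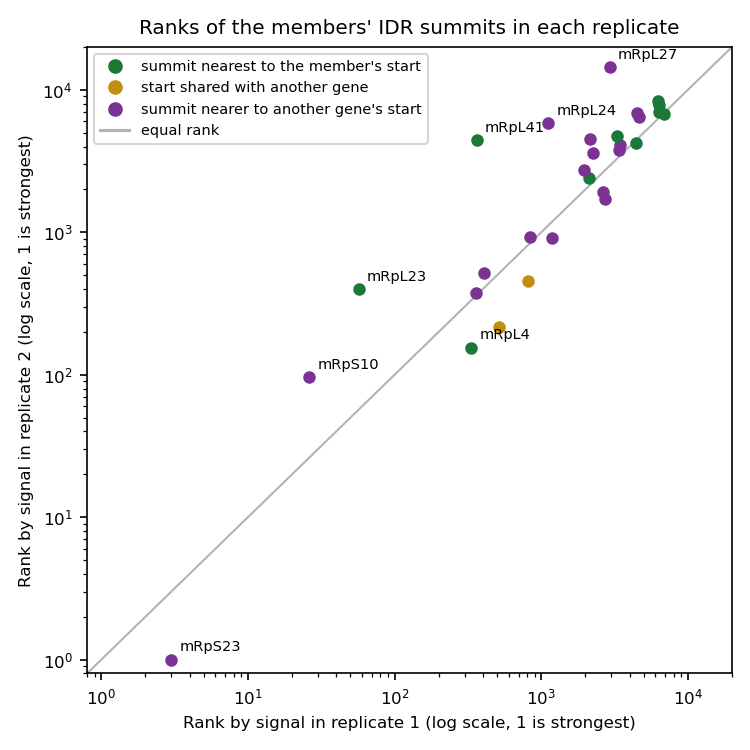
Rank by signal of the strongest IDR summit of each member in replicate 1 (horizontal) and replicate 2 (vertical), both on log scales, for the 29 members matched within 200 bp in both lists; the line marks equal rank and colours give the nearest start. Of these points, 20 lie above the line (a better rank in replicate 1), with mRpL41 and mRpL23 farthest above it on the log scales, and 9 lie below it.

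The list called on both alignments together held 30000 peaks, and the IDR list was identical to its 7944 strongest. In this joint list 37 of 73 members (50.7%) had a summit within 500 bp, against 37.9% of all protein-coding genes. The 6 members added were mRpS5 (rank 9248, 36 bp upstream), mRpS7 (rank 9407, 177 bp upstream, no summit within 200 bp in replicate 2), mRpL22 (rank 9592, 41 bp downstream), mRpL20 (rank 9647, 391 bp upstream and 8 bp from Icmt), mRpS28 (rank 14374, 38 bp upstream and 4 bp from CG5323) and mRpS25 (rank 23106, 249 bp upstream). These are weak peaks below the authors' threshold. The widest spacing counted in the IDR list was the second mRpS6 summit at 495 bp, then that of mRpS26 at 418 bp. Just outside the limit of 500 bp was mRpL22, whose nearest IDR summit was 563 bp away, followed by mRpS5 at 1109 bp.

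No summit of the joint list lay within 500 bp of the other 36 members. In the large subunit these were mRpL3, mRpL9, mRpL10, mRpL12, mRpL14, mRpL15, mRpL16, mRpL19, mRpL28, mRpL30, mRpL32, mRpL36, mRpL37, mRpL38, mRpL39, mRpL40, mRpL42, mRpL43, mRpL44, mRpL45, mRpL46, mRpL48, mRpL51, mRpL52 and mRpL54. In the small subunit they were mRpS9, mRpS14, mRpS17, mRpS18A, mRpS22, mRpS24, mRpS29, mRpS30, mRpS33, mRpS34 and mRpS35. For the 42 members without an IDR summit in reach, the nearest lay 563 to 38097 bp away, with a median of 7825 bp. At an unknown depth, a missing peak says that none was called there, not that ADD1 was absent.

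Words known as binding sites of promoter factors were counted on both strands, first within 100 bp of the summits. The E-box CAGCTG, a palindrome read by basic helix-loop-helix proteins, was present at 13 of the 32 member summits (40.6%), against 15.7% of the 3627 IDR summits at protein-coding starts. The word TATCGATA, bound by DREF and BEAF-32, was at 2 summits (6.25%, against 8.41%), those of mRpL4 and mRpS18B. The word GGTCACACT of M1BP was at 3 (9.38%, against 5.6%), namely those of mRpS16, mRpL55 and the Cip4 side of mRpS6. The forkhead word TGTTTAC was at 3 (9.38%, against 7.28%), and at mRpS10 it lay 3 bp from the summit. TGTTTAC can share the letters TG with the end of an E-box. The TATA box TATAAA was at 5 (15.6%, against 19.9%) and the CCAAT box CCAAT at 11 (34.4%, against 31.6%). No member summit had GAGAGAG (7.75% of all), GCGCATGCG, a word of the NRF-1 family (0.303%), or CTCTTTC, a polypyrimidine word of translation genes (5.05%). Of these 9 words, CAGCTG had the widest gap between its share at member summits and at all promoter summits.

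The E-box was common at the starts of members with and without a summit. In the window from 250 bases before to 50 after the start it was found at 44 of 80 member starts (55%), against 17.9% of the 19607 starts of protein-coding genes, 21.1% of the starts of head-to-head genes and 21% of the starts of genes with an IDR summit. Per gene it was present in 41 of 73 members. Of the members with an IDR summit, 19 of 31 had it (61.3%, 42.2% to 78.2%), and of those without, 22 of 42 (52.4%, 36.4% to 68.0%). These intervals overlap widely. Of the 47 copies, 41 (87.2%) began within 75 bases of a start of the member. Within 75 bases on either side, an E-box was at 51.2% of member starts (41 of 80), against 11.4% of all protein-coding starts (2245 of 19607). That window was chosen after the positions had been seen. Copies within 100 bp were found at 9 of the 18 summits nearer to a neighbour and at 4 of the 14 nearest to an own or shared start, and no test was made on these small counts. They touched the summit at mRpL18 and mRpS18C, lay 22 bp from it at mRpS2, 28 bp at mRpL11 and 42 bp at mRpS18B, and were 60 bp or more away elsewhere.

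Sequences with these words follow, with every TATCGATA, GGTCACACT and CAGCTG in capitals, again 5′ to 3′ on the member's strand in Release 6. The mRpS18B sequence (chr2L:20097225-20097325, minus strand) reaches 50 bases to either side of the summit. It holds both TATCGATA and CAGCTG within a short distance of the start of the gene. The other 3 are the spaces between head-to-head starts, from the neighbour's start at the first base to the member's at the last, and were chosen after values had been seen for their E-boxes. In the space of mRpS2 (chr2L:4850419-4850641, minus strand) the summit is next to the first base, and the E-box near the end is the copy at the start of mRpS2. In that of mRpL11 (chr3R:14511712-14511838, plus strand) the last 6 bases are the E-box, so it ends on the start itself, while the summit lies beyond the first base. In that of mRpS18C (chr3R:30423929-30423974, plus strand) the E-box covers the first 6 bases, at the start of CG15535, and touches the summit.
mRpS18B, bases around the summit: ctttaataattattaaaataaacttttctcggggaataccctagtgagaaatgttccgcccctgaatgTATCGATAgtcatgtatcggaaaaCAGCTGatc
mRpS2, space between Mon1 and mRpS2: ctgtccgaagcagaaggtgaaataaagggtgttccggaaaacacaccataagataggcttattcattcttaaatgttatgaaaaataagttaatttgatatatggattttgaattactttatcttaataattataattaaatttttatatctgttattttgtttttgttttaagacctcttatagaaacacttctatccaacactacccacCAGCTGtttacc
mRpL11, space between HtrA2 and mRpL11: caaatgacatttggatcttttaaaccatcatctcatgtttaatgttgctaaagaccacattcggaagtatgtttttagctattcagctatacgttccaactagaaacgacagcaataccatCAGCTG
mRpS18C, space between CG15535 and mRpS18C: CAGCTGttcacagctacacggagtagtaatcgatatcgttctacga

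**Figure D4:**
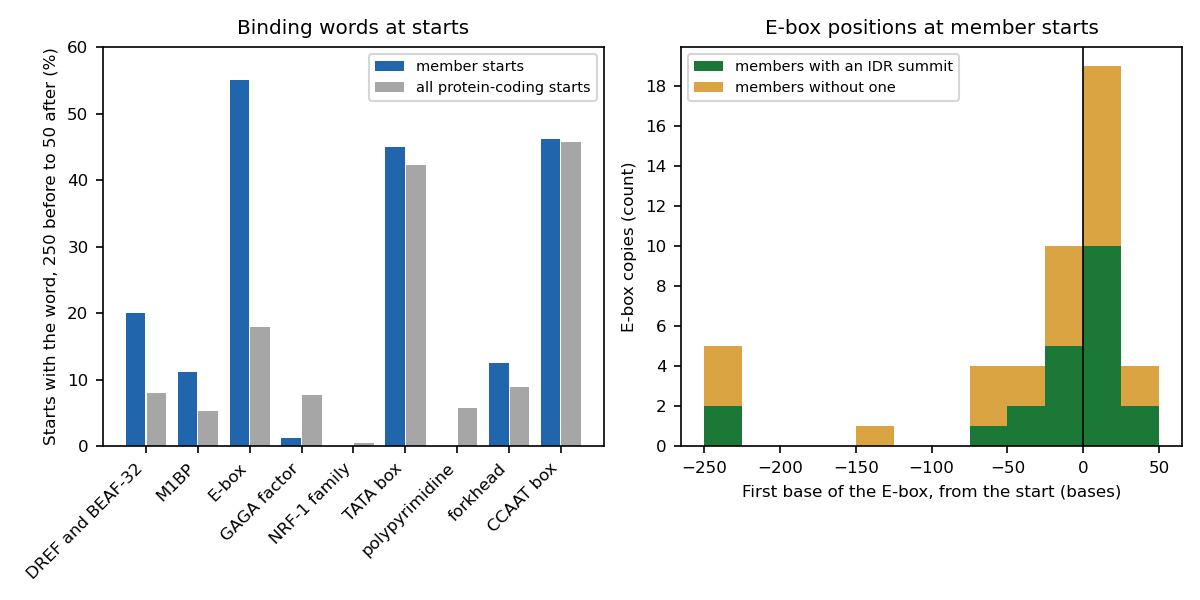
Left, percent of starts with each word from 250 bases before to 50 after, for the 80 member starts (blue) and the 19607 starts of protein-coding genes (grey). Right, position of the first base of each of the 47 E-box copies relative to the member's nearest start, in bins of 25 bases, stacked for members with an IDR summit (green) and without (yellow); 41 of the copies lie within 75 bases of the start.

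The word TATCGATA was in the start window of 16 of 80 member starts (20%), against 7.99% of all protein-coding starts. By gene it was at 4 of 31 members with an IDR summit (12.9%, 3.63% to 29.8%), against 12 of 42 without (28.6%, 15.7% to 44.6%), and these intervals overlap. At mRpS23, the member with the strongest peak, a copy lay 9 bases before the start and another 209 bases before it, but neither was within 100 bp of the summit. GGTCACACT was at 9 of 80 member starts (11.2%), against 5.23% of all, and by gene at 5 of 31 members with a summit (16.1%, 5.45% to 33.7%), against 3 of 42 without (7.14%, 1.5% to 19.5%), again with overlapping intervals. In all, 54 members held at least 1 of the 3 words in a start window, and 19 held none. Both CAGCTG and TATCGATA were present in 6. These combined counts cover the members alone, and no share over all protein-coding genes is given beside them. GAGAGAG was at 1 member start (1.25%, against 7.62%), and CTCTTTC at none (5.76% of all). A match is a string of letters, and binding of these factors was not measured.

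The other genes of mitochondrial translation had a smaller share with a summit than the ribosomal protein genes, with intervals that just overlap. Of 37 such genes, 6 had an IDR summit within 500 bp (16.2%, 6.19% to 32.0%), and this interval holds the 26.1% of all protein-coding genes. Among the 16 genes in the aminoacyl-tRNA synthetase group, ArgRS-m had a summit (rank 2066, 114 bp upstream). Among the 19 genes for translation, transcription, RNA and assembly factors of mitochondria, 5 had a summit. These were the initiation factor mIF2 (rank 3156, 430 bp upstream), the elongation factor mEFTs (rank 4811, 17 bp upstream), and mtTFB1, mtTFB2 and mTerf5, whose summits (ranks 4878, 5011 and 6359) were nearer to CG11658, CG11722 and Non3. The mitoribosomal protein genes with other names, tko and bonsai, had none. The E-box word was as common at their starts as at the members', with 22 of 40 starts (55%). Of these genes 21 of 37 (56.8%) had a head-to-head neighbour, and 5 of those 21 (23.8%) had a summit.

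Genes for the proteins of the cytoplasmic ribosome showed a different pattern. Against the 42.5% of mitoribosomal genes, an IDR summit was present at 69 of 88 cytoplasmic ones (78.4%, 68.4% to 86.5%). Among the genes with a summit, an own or shared start was nearest at 14 of 31 mitoribosomal genes (45.2%, 27.3% to 64.0%), against 67 of 69 cytoplasmic ones (97.1%) and 83.2% of all protein-coding genes (3025 of 3638). Head-to-head neighbours were present at 79.5% of the mitoribosomal and 62.5% of the cytoplasmic genes (55 of 88), and CAGCTG at 55% of the mitoribosomal and 9.33% of the cytoplasmic starts (14 of 150). These lists are set side by side, and no test of their difference was made.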

How the data were processed

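ADD1-GFP ChIP-seq of whole embryos was deposited as peak lists on dm6: 1 per replicate, 1 called on both alignments and 1 past the authors' IDR threshold. The authors' signal (scale not stated), −log10 q-value and summit of each peak were used as deposited. The −log10 q-value of 6739 IDR peaks was the same, 4.13, so peaks were ranked by the authors' signal. The sources used here give no aligner, peak caller, read filter or depth. Starts came from Ensembl release 115 (FlyBase annotation release 6.54), without genes annotated as transposable elements. Sequence came from genome Release 6. Summits were assigned to starts within 500 bp with Python 3.11.15 and NumPy 2.4.6, and exact Clopper-Pearson 95% intervals with SciPy 1.17.1 cover counting error only. Replicate summits were matched within 200 bp. The assignment was tested on simulated data. With 1 group of 2 replicates, no test was run. The 12 strongest members, those with an own-start summit and those missing in a replicate are described fully, and the others by rank and offset. Alternatives covered promoter width, lists, replicates, nearest starts and word windows. Members and lists were chosen with earlier results of these data known.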

Additional observations from a re-analysis of the deposited data

How the results depend on the processing

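The count of 31 members with an IDR summit stayed within 1.5 times under 8 of 10 alternatives: 23 with promoters of 200 bp, 32 with 1000 bp, 23 with the stronger 3972 peaks, 37 with the joint list, 32 without either replicate, 32 with any overlap of the interval and 31 with shared summits counted once. It was 14 when a summit counted for the nearest start alone and 1 among members with no other start within 1000 bp. Both are smaller by construction. These are counts of members alone. For promoter width, the stronger peaks, interval overlap and shared summits, no share over all protein-coding genes is given. Those counts therefore do not show whether the difference from all protein-coding genes held. The 14 members with an own or shared nearest start became 9 with the stronger 3972 peaks (fewer peaks), 20 with the joint list, 20 with a tie margin of 50 bp, 16 without either replicate and 14 otherwise. The 29 members matched in both replicates were 24 within 50 bp and 25 within 100 bp. The median offset of -82 bp ranged between -82.5 and -66.5 bp without a replicate (-66.5 bp without replicate 1; the cause was not tested) and was -74 bp in the joint list. Words within 50 bp of the summit, a narrower window, were found at 1 summit (TATCGATA), 1 (GGTCACACT), 5 (CAGCTG), 2 (TATAAA), 2 (TGTTTAC) and 6 (CCAAT). Starts of members with a summit, in windows of 250 bases before to 50 after, held them at 4, 6, 21, 12, 6 and 17. No paired analysis was possible because there is 1 group. A peak that was not called is not evidence of absence, since depth is unknown.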
